A study of Mus musculus with 4 samples.

Results

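The subject is a set of 45 genes of mesenchymal stroma other than collagens, read in CD8+ T cells of the mouse that were either made in culture on a stromal line or taken from the thymus. The set holds receptors, niche factors, contractile proteins, matrix proteins and secreted regulators. Members were all probes of the arrays that carry a member's symbol or its earlier symbol (Cavin1 was named Ptrf), and all 45 were found, among 27962 gene names on the array. The in vitro-derived cells came from Lin-Sca1+CD117+ cells of bone marrow of B6 mice, 6 to 8 weeks old. These were grown for 35 days with OP9-DL1 cells in medium with fetal bovine serum, Flt3 (5 ng/ml) and IL7 (1 ng/ml). The thymic cells came from C57Bl/6 mice that were 4 to 5 weeks old and had no treatment. Flow sorting then took CD8+ cells with high T cell receptor beta from both sources. Each source gave 2 RNA preps, and every thymic prep met every in vitro prep once on a two-colour Agilent array, 4 arrays in all. Cy3 always labelled the thymic side and Cy5 the in vitro side. Dye, donor age and origin of the cells therefore cannot be told apart.

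Mesenchymal stromal cells build the matrix of bone marrow and other tissues, and they hold and feed blood-forming cells through surface ligands and secreted factors. OP9 is a stromal line from the skull bone of newborn op/op mice, which carry a disabling mutation in Csf1, the gene of macrophage colony-stimulating factor. OP9-DL1 is the same line made to display Delta-like 1, a ligand of Notch receptors that drives progenitors to the T lineage. CD8+ T cells themselves make little of most matrix proteins, and a few members (such as the actin-binding protein gene Cnn2) are also used by lymphocytes. These are whole preps, so more cells of a type and more RNA per cell cannot be told apart.

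The scanner software called 63.7% to 65.6% of the 43379 gene spots well above background for Cy3, and 66.5% to 70.9% for Cy5. All 12 genes of a T cell list (among them Cd3e, Cd3d, Cd3g, Cd8a, Cd8b1, Cd5 and Lck) were above background in both channels of all 4 arrays, as the label CD8+ T cell asks. A gene was tested if at least 1 of its probes was so called in either channel on every one of the 4 arrays, and its value is the mean over such probes. This left 18641 genes. The study's design text calls the preps biological replicates, but no separate animals or cultures are named, so p-values measure only how far these preps differ. With 2 preps against 2, an exact permutation test of 1 gene cannot go below 0.333, and calls rest on limma's variance shared over genes. A call is a Benjamini-Hochberg adjusted p under 0.05 over all genes tested.

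Most stroma genes that could be tested were higher in in vitro-derived cells, from 1.15-fold for Igfbp5 to 25.8-fold for Pdgfrb, and Cnn2, Timp2 and Igfbp4 were lower. In the Cy5 channel, which holds in vitro-derived RNA, 38 of the 45 members were above background on all 4 arrays. In the Cy3 channel, which holds thymic RNA, 19 were, and 13 were above background on no array. Of the 38 members tested, 20 had passed the filter through Cy5 only and none through Cy3 only. Passing in this way favours genes that are brighter in Cy5, though it does not fix the sign (Vcam1 passed so and lay at -0.08). The counts that follow therefore describe the members and are no evidence about the set. In limma, 31 of 38 were called in either direction, against 51.6% of all genes. Of these, 28 rose in in vitro-derived cells, against 26.6% of all genes, and 3 fell, against 25.0%. At least 2-fold, 14 rose (5.60% of all genes) and 3 fell (4.52%). The median log2 difference was 0.73, against 0.03 over all genes tested. Loess sets the centre of the ratios at each intensity to 0. With each array centred on its median instead, all genes had a median of 0.34 in place of 0.03. The share of calls that were higher was then 83% in place of 51.5%. In that setting 30 of the 38 members rose, against 58.7% of all genes, and 5 fell, against 2242 of 18641 genes. All 28 that rose were higher on all 4 arrays, and the 3 that fell were lower on all 4.

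In 18 members a single probe was above background in both channels on all 4 arrays (Cav1 reached 4 arrays in Cy3 only by taking its probes together). With values from such probes alone, 10 of the 18 rose, against 26.3% of all genes filtered in the same way, and 3 fell, against 26.3%. With no filter, 26 of 45 rose, against 16.9% of genes, and 3 fell, against 16.3%. The 7 members that could not be tested were Pdgfra, Cdh2, Kitl, Cald1, Dcn, Lum and Lama4. Cdh2, Cald1 and Lama4 were above background on no array in either channel. With no filter their log2 differences lay between -0.05 for the proteoglycan gene Dcn and 0.10 for the laminin gene Lama4, and none was called. Dcn and Lum, proteoglycans that coat collagen fibrils, and Pdgfra, a growth factor receptor of fibroblasts, are often used as markers of stroma, and here each was above background on at most 1 array in a channel.

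**Figure D1:**
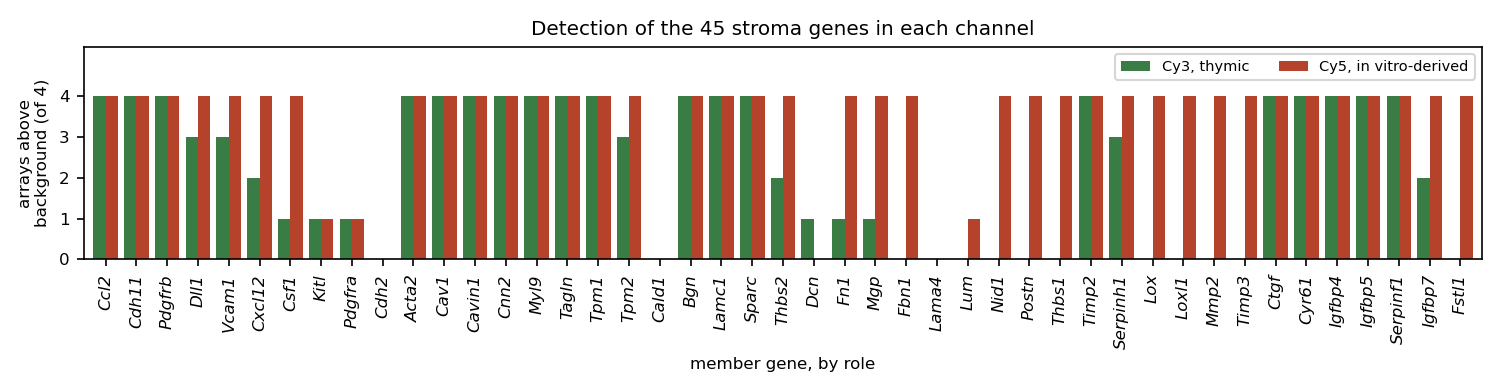
Number of arrays (0 to 4) on which each of the 45 stroma genes was well above background, in the Cy3 channel (thymic RNA, green) and the Cy5 channel (in vitro-derived RNA, red), with genes grouped by role in the order used in the text. Cy5 bars reach 4 for 38 genes and Cy3 bars for 19, and Fbn1, Nid1, Postn, Thbs1, Lox, Loxl1, Mmp2, Timp3 and Fstl1 have a full Cy5 bar and no Cy3 bar.

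A constant of 50 was added to every signal before logs were taken, which pulls the ratio of dim genes towards 0. With the scanner software's processed signals, which have no such constant and were centred on the median, the median over the 38 members was 2.26. Folds given for single members hold for the constant of 50. With processed signals the log2 difference was 6.05 for Pdgfrb, 3.68 for Sparc, 2.79 for Ctgf and 2.26 for Myl9, each larger than with the constant. The members that fell lay at -1.77 (Cnn2), -1.41 (Timp2) and -2.21 (Igfbp4). The background model was fitted without the spots that the scanner software had marked as outliers. When it was fitted on all spots, 12 of the 38 rose, against 16.9% of all genes, and 3 fell, against 3668 of 18641 genes. The calls lost in this way are named with each group.

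Among receptors, adhesion molecules and niche factors, 4 of 7 tested members rose and none fell. Pdgfrb, the receptor for platelet-derived growth factor on pericytes and other mesenchymal cells, had the largest difference of the 38. Its log2 ratio of in vitro-derived over thymic was 4.62 and 4.74 with in vitro prep 1 and 4.68 and 4.72 with in vitro prep 2. The 4 arrays lay within 0.12 of each other. The mean was 4.69 ± 0.06 (SE, n = 2 preps of each kind), or 25.8-fold (limma, adjusted p = 1.8e-05), and Pdgfrb was above background in thymic RNA as well.

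Cxcl12, the chemokine by which marrow stroma holds progenitors, had ratios of 2.34 and 2.56 with in vitro prep 1 and of 2.83 and 2.70 with prep 2. Every array with prep 2 lay above every array with prep 1. The mean of its 2 probes was 2.61 ± 0.11 (adjusted p = 9.8e-05), and 5.48 with processed signals. The probes differed, at 3.46 for the brighter and 1.75 for the other, and in thymic RNA they were above background on 2 arrays and on none, so no fold is given. The inflammatory chemokine gene Ccl2 rose less (0.81 ± 0.07, adjusted p = 7.9e-04).

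Csf1 was called at 0.25 ± 0.08 (adjusted p = 0.043). That call was lost in 8 of 15 other settings, among them the background fitted on all spots (0.21), median centring (0.02), and leaving out thymic prep 1 (0.25), thymic prep 2 (0.24) or in vitro prep 2 (0.16). Dll1, the gene of the ligand that OP9-DL1 was made to display, was not called (0.02 ± 0.05, adjusted p = 0.79). Its ratios were -0.03 and 0.06 with in vitro prep 1 and 0.01 and 0.04 with prep 2. Its normalized log2 level was 6.41 in in vitro-derived and 6.36 in thymic cells, where the lowest signal called above background lay between 6.03 and 6.34, and the difference turned to -0.27, called, with median centring. The files do not say which stretch of the transcript the probe reads, and whether it would read the introduced gene was not tested. Vcam1, an adhesion molecule of stroma and endothelium, lay at -0.08 ± 0.06 and the cadherin gene Cdh11 at -0.07 ± 0.05, neither called (Vcam1 was called lower at -0.32 with median centring). Cdh11 rests on 1 bright probe, since its other 2 were not above background on any array, and it turned to 0.60, called, with median centring.

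Of the genes of the contractile apparatus and of caveolae, 5 of 8 tested members rose and 1 fell. Myl9, a regulatory light chain of smooth muscle and non-muscle myosin, had ratios of 1.25 and 1.37 with in vitro prep 1 and of 1.55 and 1.49 with prep 2. Again both arrays of prep 2 lay above both of prep 1. The mean was 1.41 ± 0.08, 2.67-fold (adjusted p = 2.3e-04). Cnn2, calponin 2, went the other way with ratios of -1.86 and -1.87 with prep 1 and -1.91 and -1.85 with prep 2. It was 3.66-fold lower in in vitro-derived cells (-1.87 ± 0.05, adjusted p = 3.7e-05, and -0.87, still called, with median centring). It was bright in both channels of all arrays, with a mean normalized log2 level of 13.5 in in vitro-derived and 15.3 in thymic cells.

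Genes of this group are classic targets of serum response factor, which binds the CArG box, and of its cofactors. Among the 28 members with a start site window in the RefSeq table (GRCm38.p6), the 250 bases before the start held a CArG box in 2, Myl9 and Cnn2. A CArG box here is CC, then 6 letters that are each A or T, then GG, on either strand, and 1.47% of all 32851 windows hold one. The sequences are shown because the pair with this motif moved in opposite directions. They are the 180 bases before the start, 5′ to 3′ along the gene, at chr2:156775284-156775463 on the plus strand for Myl9 and chr10:79988420-79988599 on the plus strand for Cnn2, with the motif in capitals.
Myl9: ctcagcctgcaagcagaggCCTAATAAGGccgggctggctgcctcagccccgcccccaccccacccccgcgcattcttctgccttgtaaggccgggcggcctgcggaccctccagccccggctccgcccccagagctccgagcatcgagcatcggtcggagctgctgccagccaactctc
Cnn2: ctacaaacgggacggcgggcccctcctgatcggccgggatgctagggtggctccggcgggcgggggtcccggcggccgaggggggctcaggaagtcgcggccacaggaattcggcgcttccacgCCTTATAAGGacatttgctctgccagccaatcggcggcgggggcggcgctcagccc
A match is a description of these letters only, and binding was not measured.

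The tropomyosin gene Tpm2 rose (0.82 ± 0.12, adjusted p = 0.0039), while Tpm1, a related tropomyosin, lay at 0.15 ± 0.06 and was not called, though it was called higher with median centring (0.65) and with its brightest probe (0.23). The caveola coat genes Cavin1 (0.61 ± 0.07) and Cav1 (0.44 ± 0.06) rose, as did Tagln, an actin-binding protein of smooth muscle (0.27 ± 0.06). Acta2, smooth muscle actin and the usual marker of myofibroblasts, had no call when its probes were averaged (-0.06 ± 0.06, or 0.45, called, with median centring). Its 3 detected probes went different ways, at -0.91, 0.08 and 0.66. The brightest of them was the lowest, and with that probe alone Acta2 was called lower. The calls of Tpm2, Cav1 and Tagln were lost with the background fitted on all spots (0.68, 0.34 and 0.23). That of Tagln was also lost with its brightest probe (0.13), without thymic prep 1 (0.28) and without thymic prep 2 (0.27). That of Cav1 was lost without thymic prep 1 (0.40).

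Of the matrix and basement membrane genes, 9 of 10 tested members rose and none fell. Sparc, a matrix glycoprotein of bone and stroma that binds collagen, had ratios of 1.47 and 2.16 with in vitro prep 1 and of 2.38 and 2.45 with prep 2. The array that paired thymic prep 1 with in vitro prep 1 lay well under the other 3. The mean of its 2 probes was 2.12 ± 0.23, 4.33-fold (adjusted p = 0.0014). The probes lay at 2.44 and 1.79, and only the second was above background in thymic RNA on all 4 arrays.

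Thbs1, which encodes the matrix glycoprotein thrombospondin 1, had 1.498 and 1.524 with in vitro prep 1 and 1.06 and 1.03 with prep 2, the reverse of the order in Sparc. It was not above background in thymic RNA on any array and was at least 2.42-fold higher in in vitro-derived cells (log2 1.28 ± 0.16, adjusted p = 0.0021). Such bounds set the in vitro level against the higher of the thymic signal and the lowest signal that counts as above background, and they are open to dye bias. Fbn1, which encodes the microfibril protein fibrillin, had 0.96 and 1.12 with prep 1 and 1.54 and 1.44 with prep 2. Nid1, a linker of the basement membrane, had 1.04 and 1.17 with prep 1 and 1.45 and 1.39 with prep 2. In both genes the preps did not overlap and prep 2 was the higher. Fbn1 was at least 2.21-fold higher (1.27 ± 0.15, adjusted p = 0.0019) and Nid1 at least 2.40-fold (1.26 ± 0.11, adjusted p = 7.4e-04), or 4.30 and 4.68 on the log2 scale with processed signals.

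The other matrix genes that rose had log2 differences under 1 with the offset of 50. They were Thbs2 (0.92 ± 0.10), the fibronectin gene Fn1 (0.89 ± 0.10), Postn, periostin (0.65 ± 0.11, at least 1.57-fold), Mgp, an inhibitor of calcification (0.44 ± 0.11), and the proteoglycan gene Bgn (0.34 ± 0.06). The laminin chain gene Lamc1 lay at 0.16 ± 0.05 and was not called (adjusted p = 0.057), though it was called higher with median centring (0.59) and with processed signals (0.25). Processed signals gave 3.13 for Postn, 2.90 for Fn1 and 2.26 for Thbs2. The 2 detected probes of Fn1 differed, at 1.49 and 0.28. With the background fitted on all spots, the calls of Fn1 (0.73), Fbn1 (1.03), Bgn (0.28), Postn (0.54), Mgp (0.37), Nid1 (1.03) and Thbs2 (0.75) were lost. Those of Bgn and Mgp were also lost without thymic prep 1 (0.29 and 0.51) and without thymic prep 2 (0.38 and 0.37), and that of Mgp with processed signals (1.96). Sparc and Thbs1 were called in all of these settings.

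**Figure D2:**
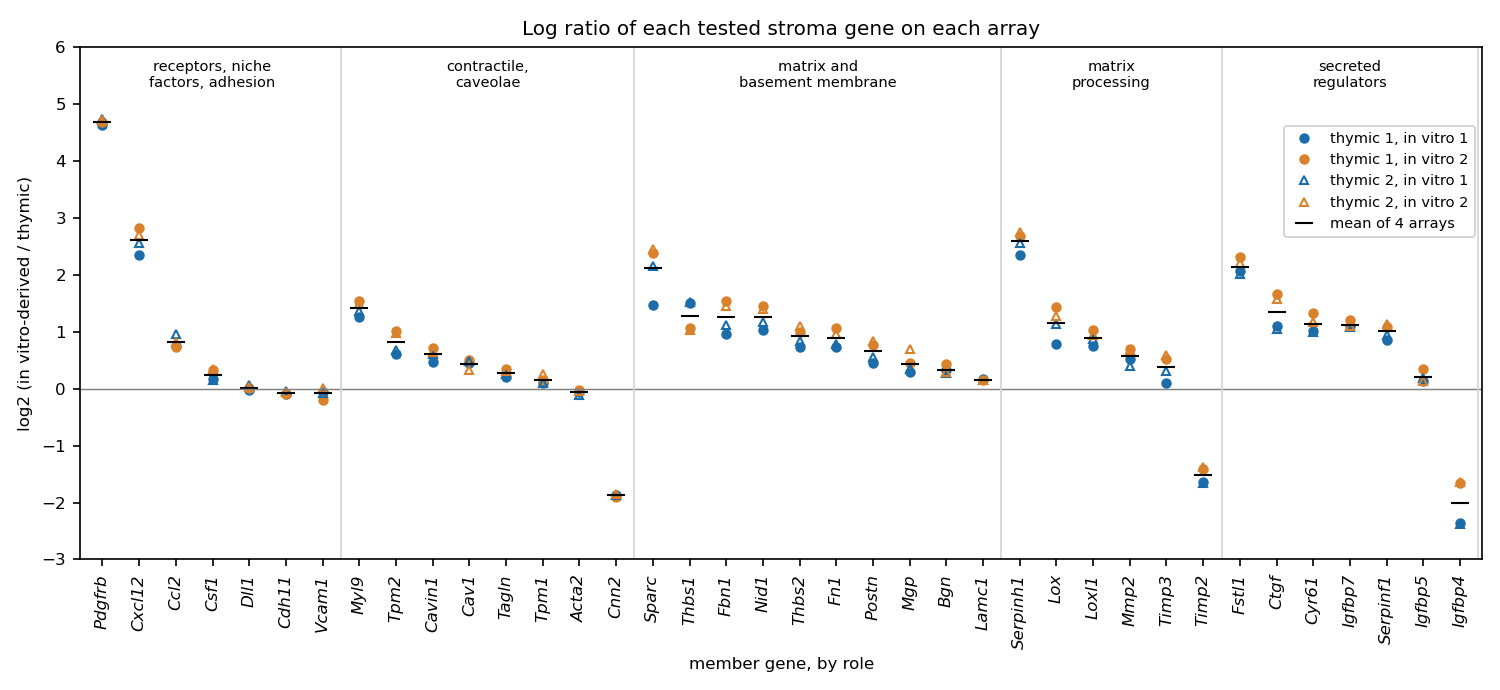
Log2 ratio of in vitro-derived over thymic signal on each of the 4 arrays for the 38 tested stroma genes, grouped by role and sorted by their mean (bar). Blue points hold in vitro prep 1 and orange points prep 2, filled circles thymic prep 1 and open triangles thymic prep 2. Pdgfrb sits at 4.62 to 4.74 on all 4 arrays, Cnn2, Timp2 and Igfbp4 lie below 0, and orange points lie above blue ones in most genes.

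Of the enzymes, chaperone and inhibitors that process the matrix, 4 of 6 rose and 1 fell. Serpinh1, the collagen chaperone Hsp47 that fibroblasts need to fold procollagen, had ratios of 2.35 and 2.55 with in vitro prep 1 and of 2.68 and 2.75 with prep 2. The preps did not overlap. It was 6.00-fold higher (2.58 ± 0.11, adjusted p = 8.9e-05). In thymic RNA Serpinh1 was above background on 3 arrays, and its log2 difference was 4.51 with processed signals. Lox, the oxidase that cross-links collagen and elastin, had 0.78 and 1.13 with prep 1 and 1.43 and 1.28 with prep 2. It was at least 2.19-fold higher (1.15 ± 0.14, adjusted p = 0.0019), and its relative Loxl1 at least 1.82-fold (0.90 ± 0.08). The gelatinase gene Mmp2 was at least 1.48-fold higher (0.57 ± 0.09). The calls of Lox (0.92), Loxl1 (0.71) and Mmp2 (0.49) were lost with the background fitted on all spots.

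Timp2, an inhibitor of metalloproteinases, had ratios of -1.64 and -1.66 with in vitro prep 1 and of -1.40 and -1.37 with prep 2, all below 0. It was 2.87-fold lower in in vitro-derived cells (-1.52 ± 0.10, adjusted p = 2.8e-04, or -0.76, still called, with median centring) and was above background in both channels of all arrays. Its relative Timp3 lay at 0.38 ± 0.13 and was not called (adjusted p = 0.061). It was called higher with an offset of 16 (0.67), with processed signals (2.30) and without in vitro prep 1 (0.55).

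Among secreted regulators, 6 of 7 rose and 1 fell. Fstl1, a follistatin-like glycoprotein made by mesenchyme, had ratios of 2.06 and 2.01 with in vitro prep 1 and of 2.31 and 2.20 with prep 2. It was at least 4.40-fold higher (2.14 ± 0.09, adjusted p = 9.1e-05), or 5.92 on the log2 scale with processed signals. Ctgf and Cyr61 encode matrix-associated proteins of one family (now named Ccn2 and Ccn1) that respond quickly to serum and stretch. Ctgf had 1.099 and 1.04 with prep 1 and 1.66 and 1.57 with prep 2, so that both arrays of prep 2 lay above both of prep 1. Cyr61 had 1.01 and 1.00 with prep 1 and 1.32 and 1.17 with prep 2, in the same order. Ctgf was 2.53-fold higher (1.34 ± 0.18, adjusted p = 0.0028, lost at 1.14 with the background fitted on all spots) and Cyr61 2.18-fold (1.13 ± 0.10, adjusted p = 6.2e-04).

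Cyr61 is a known target of the TEAD factors, which bind GGAATG. On either strand, 7 of the 28 members with a RefSeq window held these letters in the 250 bases before the start, and 12.6% of all windows do. Cyr61, which rose, and the tropomyosin gene Tpm1, whose call depends on the setting, are shown as examples that hold them on opposite strands. The 180 bases before the start are given along the gene at chr3:145649986-145650165 for Cyr61 and chr9:67049214-67049393 for Tpm1, both on the minus strand. Capitals mark the letters, which lie on the opposite strand in Cyr61 and so read as their reverse complement.
Cyr61: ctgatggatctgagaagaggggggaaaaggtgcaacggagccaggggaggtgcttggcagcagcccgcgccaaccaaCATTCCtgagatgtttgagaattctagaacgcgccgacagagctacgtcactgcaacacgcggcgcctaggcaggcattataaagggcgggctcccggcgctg
Tpm1: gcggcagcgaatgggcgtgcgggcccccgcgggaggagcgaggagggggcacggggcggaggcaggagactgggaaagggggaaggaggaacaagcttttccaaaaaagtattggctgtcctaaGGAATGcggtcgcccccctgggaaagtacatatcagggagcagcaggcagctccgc
As above, this says only which letters the windows hold.

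Igfbp4, Igfbp5 and Igfbp7 encode binding proteins of insulin-like growth factors or their relatives. Igfbp7 had ratios of 1.09 and 1.09 with in vitro prep 1 and of 1.21 and 1.09 with prep 2. It rose 2.17-fold (1.12 ± 0.06, adjusted p = 1.5e-04), with 3 of the 4 arrays almost equal. In thymic RNA Igfbp7 was above background on only 2 arrays, and its log2 difference was 2.54 with processed signals. Igfbp4 had -2.36 and -2.37 with prep 1 and -1.65 and -1.64 with prep 2. It was 4.01-fold lower (-2.005 ± 0.23, adjusted p = 0.0017), with both arrays of prep 2 above both of prep 1. Igfbp5 was called at 0.20 ± 0.06 (adjusted p = 0.047), and that call was lost in 12 of 16 other settings. Serpinf1, the secreted factor PEDF, had 0.86 and 0.94 with prep 1 and 1.08 and 1.14 with prep 2. It rose (mean of its probes 1.00 ± 0.09, adjusted p = 6.9e-04), and its 2 probes differed. The value of 1.66 came from a probe that was above background in thymic RNA on no array, and 0.35, still called, from one that was above background in both channels on all 4.

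The second comparison is between the 2 in vitro preps, which shared their thymic partners and so can be set against each other on each of them. It has 1 prep a side and therefore no test. By the mean over both partners, 31 of 38 members were higher in prep 2 and 7 in prep 1, where 48.3% of all genes were higher in prep 1. On both thymic partners alike, 28 were higher in prep 2, against 39.8% of all genes, and 2 (Thbs1 and Ccl2) were higher in prep 1. The median of in vitro prep 1 minus prep 2 was -0.21 on the log2 scale, against -0.01 over all genes. The standard deviation of this difference over all genes was 0.18.

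By at least 1.5-fold and with 1 sign on both partners, 2 of 38 members were higher in prep 2, Sparc and Igfbp4, against 0.660% of all genes. None was higher in prep 1 by that rule, against 0.558%. Sparc was 1.51-fold higher in prep 2 as a mean, by 0.90 with thymic prep 1 and by 0.29 with thymic prep 2. Igfbp4 was 1.65-fold higher in prep 2, by 0.71 and 0.73, and it was also the lowest of the 38 against thymic cells. Ctgf was 1.46-fold higher in prep 2 and Thbs1 1.38-fold higher in prep 1, an order that turned with processed signals (-0.29). Pdgfrb, the member with the largest difference from thymic cells, was nearly equal in the preps (-0.06 with thymic prep 1 and 0.02 with thymic prep 2), as was Cnn2 (0.05 and -0.03). Between the 2 thymic preps the median over the members was 0.03, and no member differed by 1.5-fold (0.252% of all genes were higher in thymic prep 1 by that rule, and 0.0376% in thymic prep 2). The largest was Sparc, 0.38 higher in thymic prep 1 as a mean of its 2 probes, by 0.69 with in vitro prep 1 and 0.08 with in vitro prep 2.

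Of the 28 members that rose against thymic cells, 25 were higher in in vitro prep 2 and 3 in prep 1. Of the 12 T cell genes, 12 were higher in in vitro prep 1, with a median of 0.11 and the largest value at Cd5 (0.46). With median centring 8 of the 12 were, with a median of 0.05, while 32 of the 38 stroma genes were then higher in prep 2. The part of the T cell genes in the order of the stroma genes was not tested.

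**Figure D3:**
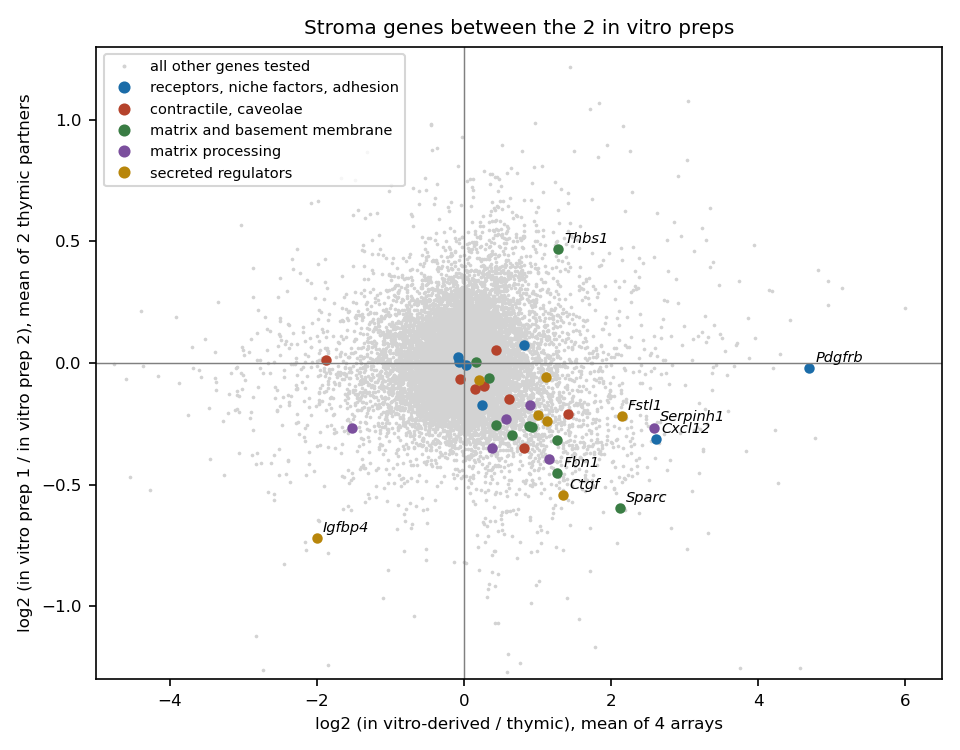
Difference between in vitro-derived and thymic cells (x axis, log2, mean of 4 arrays) against that between in vitro prep 1 and prep 2 (y axis, log2, mean over both thymic partners) for all genes tested (grey) and the 38 stroma genes (coloured by role). Most coloured points lie right of 0 and below 0. Pdgfrb lies far to the right near 0 on the y axis, Thbs1 lies above 0, and 10 grey genes fall outside the y axis.

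Other stroma genes, from a list of 50 that are no members, were tested in 39 cases. Of these 25 rose, against 26.6% of all genes, and 5 fell, against 25.0%, with a median of 0.43. With median centring 26 rose, against 58.7% of all genes, and 3 fell. The median was then 0.42, close to the 0.34 of all genes. The other lists were filtered as the members were, so their counts too are descriptions only. When both channels had to be above background, 10 of 22 rose (26.3% of all genes) and 5 fell (26.3%), with a median of 0.14. With the background fitted on all spots 9 rose (16.9% of all genes) and 5 fell. The growth factor gene Gas6 rose (2.43 ± 0.12), as did Snai2, a transcription factor of mesenchyme, which was at least 2.996-fold higher (1.58 ± 0.16, a call lost at 1.303 with the background fitted on all spots). Eng and Nt5e, surface proteins that mark cultured stroma but are found on blood cells too, were lower (-3.02 ± 0.06 and -2.14 ± 0.25), as was the fibulin gene Fbln1 (-1.12 ± 0.11). Of 14 collagen chains 12 were tested and 12 rose, with a median of 1.03 (6 rose with the background fitted on all spots). When both channels had to be above background, 9 of 9 rose, with a median of 1.04. Col1a2 (2.94 ± 0.11) and Col1a1 (2.47 ± 0.09), the chains of type I collagen that Serpinh1 helps to fold, rose, as did Col3a1 (1.49 ± 0.09). Col5a2, Col6a1 and Col6a3, named here after their values were seen, were above background in thymic RNA on no array and so cannot be ranked against these. By the mean over partners, 10 of 12 collagens and 29 of 39 other stroma genes were higher in in vitro prep 2, with medians of -0.17 and -0.11.

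OP9 cells can turn into fat cells, and 4 of 7 tested adipocyte genes rose, against 26.6% of all genes, with a median of 0.30. With median centring 3 of the 7 rose, against 58.7% of all genes, and their median of 0.17 lay under that of all genes (0.34). When both channels had to be above background, 2 of 4 rose, with a median of 0.23. With the background fitted on all spots none was called, with a median of 0.21 and Fabp4 at 1.104 (adjusted p = 0.051). Fabp4, the fatty acid binding protein of adipocytes, rose (1.32 ± 0.13), as did Lpl, lipoprotein lipase (0.61 ± 0.07). By the mean over partners, 4 adipocyte genes were higher in in vitro prep 1 and 3 in prep 2. The median of prep 1 minus prep 2 was 0.03, unlike the medians below 0 of the stroma and collagen lists, and Fabp4 lay at -0.39. Endothelial markers such as Pecam1 and Kdr had 0 of 7 called in limma, 0 of 7 at an unadjusted p under 0.05, a median of 0.01 and a largest difference of 0.10. With median centring 1 of the 7 was called higher and 3 lower. Thymic epithelium had 1 of 8 called, the proteasome gene Psmb11 (-0.24 ± 0.06, a call lost at -0.20 with the background fitted on all spots), with a median of 0.01, or 0.27 with median centring.

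The sort for CD8 and T cell receptor beta would remove most other blood cells, whose markers were read as well. Over all genes 26.6% rose and 25.0% fell. With median centring 58.7% of all genes rose, with a median of 0.34, and with the background fitted on all spots 16.9% rose. Among B cell genes 1 of 8 rose, the adaptor gene Blnk (1.24 ± 0.09), and 1 fell, Cd79b (-0.43 ± 0.07), which was called higher at 0.23 with median centring. The median of the B cell genes was -0.07, or 0.02 with median centring. Among myeloid genes 3 of 6 rose and 2 fell (median 0.23), with the lysozyme gene Lyz2 the largest at -1.53 ± 0.22. With the background fitted on all spots 1 rose and 1 fell, and without thymic prep 2 none rose and 1 fell. Of dendritic cell genes 1 of 5 rose, Batf3 (0.40 ± 0.08, a call lost at 0.34 with the background fitted on all spots), and the median was -0.03, or 0.28 with median centring. Of erythroid and megakaryocyte genes 0 of 5 were called in limma, 1 of 5 at an unadjusted p under 0.05, and 3 of 5 with median centring. The T cell genes have no settled direction. After loess 8 of 12 fell and 1 rose, Lck (0.49 ± 0.12), with a median of -0.59. With median centring 0 fell and 9 rose, against 58.7% of all genes, and their median of 0.36 was close to the 0.34 of all genes. With processed signals 8 fell and 1 rose (median -0.50), where 30.8% of all genes rose.

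As a mean of normalized log2 levels over the tested genes of a list, the stroma members lay at 8.20 and 8.44 in the in vitro preps and at 7.58 and 7.56 in the thymic preps. Collagens lay at 7.96 and 8.21 against 6.93 and 6.94, and adipocyte genes at 7.32 and 7.45 against 7.01 and 6.98. Endothelial genes lay at 7.002 and 7.009 against 6.98 and 6.99, and T cell genes at 13.7 and 13.6 against 14.1 in both. Both in vitro preps were above both thymic preps in the stromal, collagen and adipocyte lists and, by less, in the endothelial and dendritic cell lists. They were below both thymic preps in the T cell list and, by less, in the thymic epithelium and myeloid lists. This scale follows loess. Thymic epithelium genes lay at 7.54 in both in vitro preps against 7.56 and 7.59. B cell genes lay at 7.98 and 7.82 against 7.85 and 7.86, and myeloid genes at 7.41 and 7.46 against 7.50 and 7.47. Dendritic cell genes lay at 7.48 in both against 7.43 and 7.38, and erythroid and megakaryocyte genes at 7.16 and 7.21 against 7.17 and 7.10. Not above background in either channel were Cfd among adipocyte genes, Tie1 and Emcn among endothelial genes, and Elane, Csf3r and S100a8 among myeloid genes. The same held for Trp63 among thymic epithelium genes, Ebf1 among B cell genes, Siglech, Clec9a and Ccl22 among dendritic cell genes and Pf4 and Ppbp among erythroid and megakaryocyte genes. The part of any of these cell types in the stroma result was not tested.

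**Figure D4:**
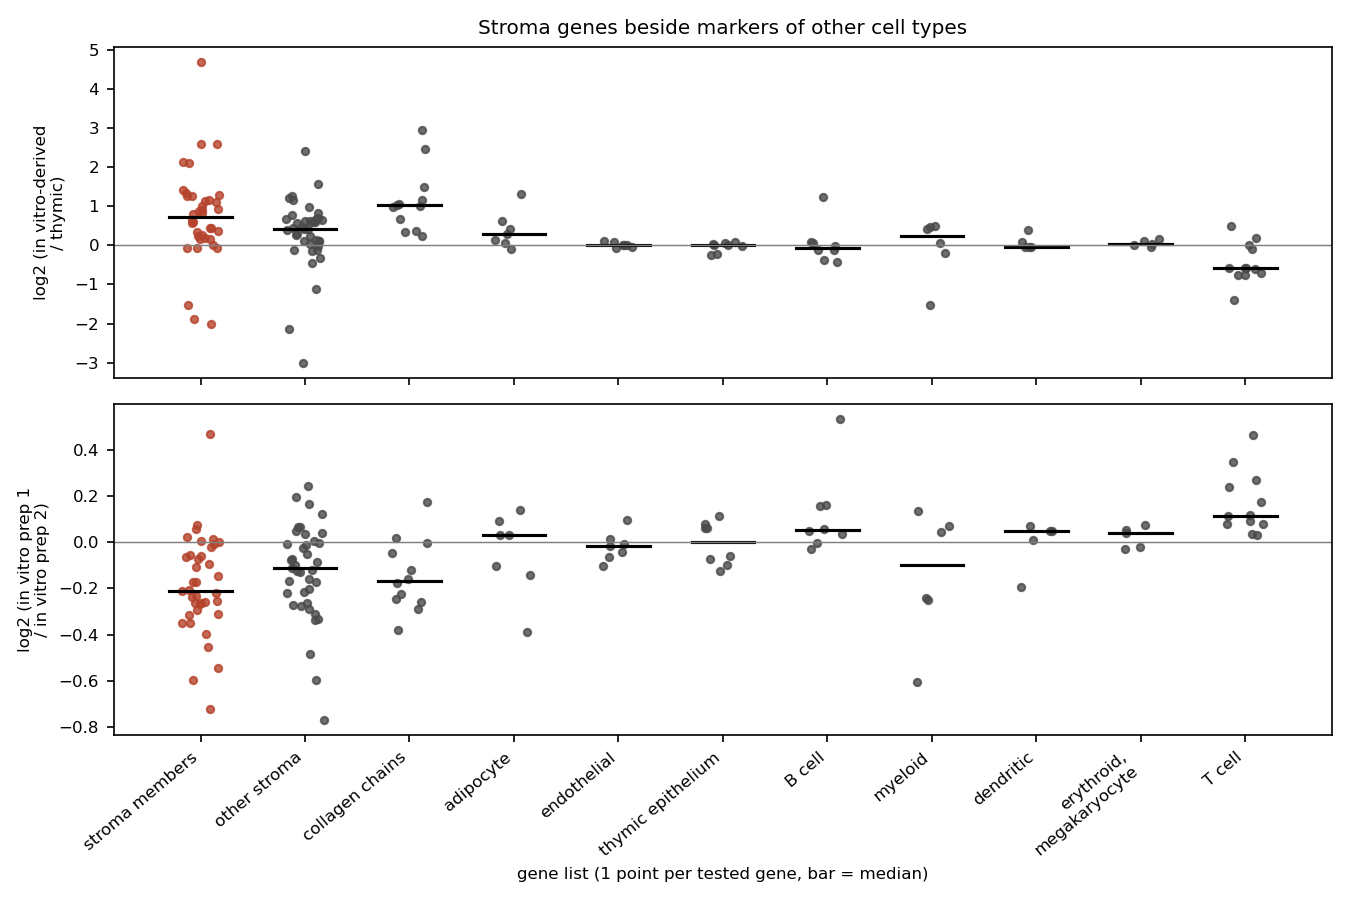
Log2 difference of in vitro-derived from thymic cells (top) and of in vitro prep 1 from prep 2 (bottom) for each tested gene of the stroma set (red) and of 10 other lists (grey), with the median of each list as a bar. The stroma set (median 0.73), other stroma genes (0.43) and collagens (1.03) lie above 0 in the top panel and below 0 in the bottom panel. T cell genes do the reverse after loess, though their median in the top panel turns to 0.36 with median centring, where all genes have a median of 0.34.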

How the data were processed

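Each of the 4 arrays carried thymic RNA in Cy3 and in vitro-derived RNA in Cy5, and the ratio is in vitro-derived over thymic. The deposited scanner files hold intensity values (mean spot signal, median local background and processed signal) and 0 or 1 spot marks, per the file headers, from Agilent Feature Extraction 9.5.1.1. The value table deposited by the authors holds log10 ratios, which equalled the scanner files' log10 ratios within 0.0001 for 99.4% to 99.5% of 41267 probes, so its scale and direction are known; its column medians were 0.

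Backgrounds were corrected with normexp (offset 50) in limma 3.58.1 (R 4.3.3), without marked spots (196 to 262 per array), a choice taken from earlier work on these data that had seen its effect. Loess then normalized each array's ratios, with weight 0 for control spots. From the 4 log2 ratios 2 in vitro and 2 thymic prep values were fitted by least squares, with 2 residual degrees of freedom, and tested with lmFit and eBayes, Benjamini-Hochberg adjusted over 18641 genes. The difference between the in vitro preps was taken on each thymic partner and averaged. The fit was tested on simulated data.

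All 45 members are accounted for. Values on every array are given for those called at least 2-fold and those whose in vitro preps differed by at least 1.5-fold, and for some others named for contrast. From other lists at most 4 genes with the largest called differences are named, plus those that go at least 2-fold against the list's majority. Some genes of the other lists are not reported by name here. Members and lists were chosen with earlier results of these data known. Of 81 member probes 71 matched a RefSeq accession, all to the same gene. Promoter windows come from RefSeq (GRCm38.p6). No source used here gives the array's build, so probes have no coordinates. The number of arrays limits the precision.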

Additional observations from a re-analysis of the deposited data

Results flagged for a closer look

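The log2 ratio of Igfbp7 was 1.21 on the array of thymic prep 1 with in vitro prep 2, while the other 3 arrays lay at 1.09, so that this array stood farther from the others than Dixon's limit for 4 values allows. It was 1 of 38 stroma genes looked at in this way. Chance alone gives about 1 such array in 20 genes, and the arrays share their preps.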

How the results depend on the processing

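Of the 38 tested members, 28 rose and 3 fell. Median centring gave 5 that fell, and it turned Cdh11 to 0.60, Dll1 to -0.27 and Acta2 to 0.45, all called. The cause was not tested. With its brightest probe Acta2 was instead called lower, at -0.91. An offset of 16 gave a median over the members of 1.12. With the background fitted on all spots 12 rose, 6 of them at least 2-fold, and the median was 0.58, with 6820 genes called in all against 9618. Processed signals gave 24 members at least 2-fold higher and a median of 2.26, and the log ratios deposited by the authors in their series table gave 24 members and a median of 2.13. With probes above background in both channels, which leaves 18 members, 10 rose, against 26.3% of all genes so filtered, and the median was 0.27. With no filter the median was 0.38 over 45. Leaving out a prep or an array gave 5480 to 9563 genes called in all (5785 without thymic prep 1 and 5480 without thymic prep 2), 22 to 28 members that rose and medians of 0.59 to 0.79, the lowest without in vitro prep 2. With thymic prep 2 as the only partner, the median of in vitro prep 1 minus prep 2 was -0.15, with 31 of 38 members higher in prep 2. No paired analysis was possible because the prep numbers of thymic and in vitro-derived cells mark no shared source, and each array already pairs one of each. Dim thymic signal limits 9 tested members to lower bounds or ratios pulled towards 0.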
